A study of Mus musculus with 16 samples.

Results

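The BCL-2 family decides whether a cell keeps its mitochondria intact, and 10 of its genes were followed here in CD8 T cells from leukemic mice: Bcl2, Bcl2l1, Mcl1, Bcl2l11, Bid, Bbc3, Pmaip1, Bad, Bax and Bak1. Members were taken by gene symbol. Where a symbol stood alone on several probe sets, the probe set with the highest mean over the 16 arrays was used. This gave values for 9 of the 10 genes, among 22180 genes in all. Bax had no probe set annotated to it and is not analysed here. CD8 T cells, the lymphocytes that kill infected and transformed cells, were sorted from spleens of female C57BL/6 mice (C56BL/6 in one label field), 6 weeks after transfer of murine CLL cells from Eµ-TCL1 mice. These transgenic mice express the TCL1 oncogene in B cells and develop a disease like chronic lymphocytic leukemia (CLL). The 4 subsets, with 4 arrays each, all came from mice that carried the leukemia, the naive subset included, and the mice's age is not given in the sources used here. PD-1hi effector cells were CD127low, CD44int-hi and PD-1hi. PD-1int effector cells were CD127low, CD44int-hi and PD-1int. Memory cells were CD127hi and CD44hi. Naive cells were CD127hi and CD44low. Whether arrays came from separate or pooled mice is not stated, so the p-values measure the spread between these arrays, which may be technical.

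BCL-2 proteins act in 3 groups. The guardians BCL-2 (Bcl2), BCL-XL (Bcl2l1) and MCL-1 (Mcl1) hold the outer mitochondrial membrane closed. BAX and BAK (Bak1), the effectors, form pores in it and release cytochrome c, which starts caspase activation. The BH3-only proteins carry the death signal: BIM (Bcl2l11), BID (Bid) and PUMA (Bbc3) neutralise guardians and can activate BAX and BAK, while NOXA (Pmaip1) and BAD (Bad) act mainly by occupying guardians, NOXA chiefly MCL-1 and BAD chiefly BCL-2 and BCL-XL. In T cells, interleukin 7 is known to sustain BCL-2, and BIM is a main brake on the survival of activated cells. Much of the control of MCL-1, BAD, BID and BAX is exerted on the protein, which arrays of RNA do not measure.

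All values are log2 expression as deposited, so a difference of 1 is a 2-fold change; the level of a gene can be compared between arrays, not with that of another gene. Array medians lay between 6.39 and 6.49. The genes behind the gates followed them. Pdcd1, which encodes PD-1, lay at 11.18 to 11.52 in PD-1hi and 9.75 to 10.42 in PD-1int. In memory it lay at 7.02 to 7.23 and in naive at 6.52 to 7.11. Il7r, which encodes CD127, lay at 4.48 to 5.67 in PD-1hi and 7.14 to 7.91 in PD-1int. In memory it was 12.48 to 12.67 and in naive 12.89 to 13.04. Cd44 lay at 7.85 to 8.10 in PD-1hi, 8.45 to 8.91 in PD-1int, 8.84 to 9.13 in memory and 5.96 to 6.23 in naive. PD-1hi and PD-1int thus did not overlap in Il7r or Cd44 either. Cd8a stayed between 11.19 and 11.73 in every array. Cd3e lay at 12.86 to 12.96 in PD-1hi, 12.75 to 12.82 in PD-1int, 12.43 to 12.57 in memory and 12.51 to 12.62 in naive. Of 8 CD8 T-cell markers measured in a list of 9, 4 were higher and 1 lower in PD-1hi than in naive. The threshold was a limma adjusted p under 0.05, which 27.1% of all genes passed. Zap70 (log2 difference 1.11), Cd2 (0.51), Cd3e (0.37) and Cd3g (0.34) were higher, and Cd8b1 (-0.33) was lower. Mitosis genes differed in step with the subsets: the mean over 11 of them was 10.24 to 10.66 in PD-1hi, 9.34 to 9.84 in PD-1int, 7.73 to 9.03 in memory and 6.21 to 6.59 in naive. Their part in the results below was not tested.

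Both effector subsets differed from naive cells in most of the measured family. Of the 9 genes, 4 rose and 2 fell in PD-1hi against naive, or 66.7%, where 27.1% of all genes passed (13.4% higher, 13.7% lower). Here and below, rose and fell mean that limma's adjusted p (Benjamini-Hochberg, every gene included) was under 0.05. The arrays of 6 of the 9 genes did not overlap between PD-1hi and naive, against 25.9% of all genes. In PD-1int against naive 4 rose and 1 fell, or 55.6%, against 22.7% of all genes (11.9% higher, 10.8% lower), and 5 did not overlap, against 23.6%. In memory against naive 3 rose and 1 fell, or 44.4%, against 11.7% of all genes (6.70% higher, 5.02% lower), and 5 did not overlap, against 15.7%. That count of 4 rested on single arrays: 1 gene passed without naive replicate 2, and 2 passed without naive replicate 3, without memory replicate 1 or without memory replicate 4. The median log2 difference of the 9 genes was 0.25 in PD-1hi, 0.24 in PD-1int and 0.31 in memory, while the medians over all genes were -0.01, -0.03 and -0.02. These 3 comparisons share the naive arrays. None of the 9 genes was among the 40% of genes with the lowest means. Without those dim genes, 5882 genes passed in PD-1hi against naive, 5009 in PD-1int and 2841 in memory. With them, 6020, 5037 and 2601 passed. The shares of all genes given above are therefore lower than the shares among brighter genes. In PD-1hi against naive, a pro-survival gene and pro-death genes rose (Bcl2l1; Bid, Pmaip1 and Bak1), and 1 of each kind fell (Bcl2 and Bbc3). The fall in PD-1int was that of Bbc3, and the fall in memory that of Mcl1. In sorted bulk RNA, fewer cells of a type and less RNA per cell cannot be told apart.

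**Figure D1:**
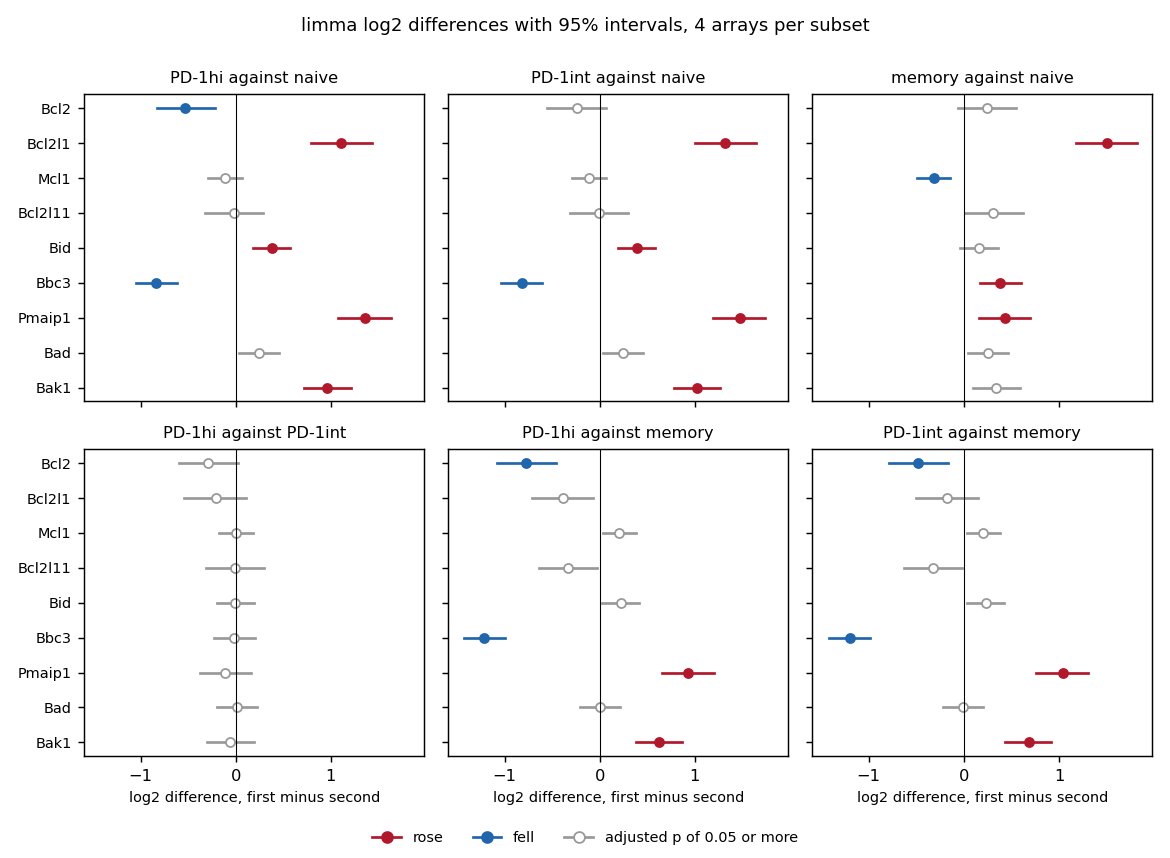
limma log2 difference (x axis, log2 units, first-named subset minus second) of each of the 9 genes in the 6 comparisons, with 95% intervals and 4 arrays per subset. Pmaip1, Bak1 and Bcl2l1 lie right of 0 and Bbc3 lies left of 0 in both effector subsets against naive, and all 9 intervals cover 0 in PD-1hi against PD-1int.

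Among the guardians, Bcl2, the gene first found through its activation in B-cell lymphoma, was highest in memory and lowest in PD-1hi. The PD-1hi arrays, replicates 1 to 4, read 12.31, 11.79, 12.15 and 12.24. PD-1int gave 12.81, 12.06, 12.14 and 12.63. Memory had 12.93, 12.73, 12.99 and 12.92, and naive 12.71, 12.51, 12.73 and 12.65. All 4 PD-1hi arrays thus lay below all naive and all memory arrays, whereas PD-1int replicate 1 lay above every naive array and its replicates 2 and 3 below every one. Bcl2 fell in PD-1hi against naive by 0.53 ± 0.15 on the log2 scale (± the standard error of the fit, n = 4 per subset), a 1.44-fold lower level (limma adjusted p = 0.0104). Against memory the fall in PD-1hi was larger, with a log2 difference of -0.77 ± 0.15 (limma adjusted p = 5.94e-04). PD-1int was below memory as well, with a log2 difference of -0.48 ± 0.15 and an adjusted p of 0.0295 in limma, but these arrays overlapped, and the call was lost in 5 of 16 fits that left out 1 array (limma adjusted p = 0.116 without PD-1int replicate 2). Against naive, Bcl2 in PD-1int differed by -0.24 ± 0.15 and in memory by 0.24 ± 0.15, and neither passed (limma adjusted p = 0.298 and 0.372). A dimmer probe set for Bcl2 that was not used read 6.31, 6.20, 6.39 and 6.59 in PD-1hi and 6.72 to 6.85 in naive, again without overlap.

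Markers of B cells, the cells of the leukemia, were read beside Bcl2. Of 12 measured in a list of 14, 1 rose and 3 fell in PD-1hi against naive. Of all genes 27.1% passed there, so that count was near the background. Among the 12, 7 belonged to the 40% of genes with the lowest means. The mean over the 12 was 5.99 to 6.31 in PD-1hi, 6.11 to 6.46 in PD-1int, 6.58 to 6.78 in memory and 6.37 to 6.57 in naive. Ighm, which encodes the heavy chain of IgM, averaged 8.95 ± 0.64 in PD-1hi, 9.65 ± 0.55 in PD-1int, 12.31 ± 0.06 in memory and 12.63 ± 0.05 in naive (SD, n = 4). The falls were Ighm (-3.68 ± 0.26), Cd79b (-0.97 ± 0.13) and Bank1 (-0.91 ± 0.19), and the rise was Cd22 (0.84 ± 0.12). Cd22 was highest in memory, averaging 7.13 in PD-1hi, 8.03 in PD-1int, 9.50 in memory and 6.28 in naive. Cd79a, the partner of Cd79b in the B-cell receptor, lay at 5.75 to 6.46 in PD-1hi and 5.94 to 6.67 in naive. Ms4a1, which encodes CD20, lay at 5.18 to 5.57 in PD-1hi and 5.18 to 5.73 in naive. Both overlapped between these subsets. Of 10 myeloid markers 3 rose in PD-1hi against naive, again near the 27.1% of all genes that passed. Among the 10, 5 belonged to the 40% of genes with the lowest means. The mean over the 10 was 6.93 to 7.12 in PD-1hi, 6.87 to 7.12 in PD-1int, 6.39 to 6.57 in memory and 6.34 to 6.59 in naive. The rises were Cd68 (3.05 ± 0.17), a lysosomal membrane protein gene, Itgam (1.03 ± 0.20), which encodes CD11b, and Cst3 (0.57 ± 0.07), a protease inhibitor gene. The other 7, Lyz2, Csf1r, Adgre1, S100a8, S100a9, Clec7a and Siglech, did not pass, with log2 differences from -0.22 (Siglech) to 0.50 (Lyz2). The part of RNA from other cells in these results was not tested.

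Bcl2l1, the gene of BCL-XL, gave the largest difference among the guardians. It read 7.95, 7.46, 7.85 and 8.08 in PD-1hi and 8.32, 7.77, 7.84 and 8.25 in PD-1int. Memory arrays had 8.32, 8.10, 8.03 and 8.45, and naive arrays 6.94, 6.77, 6.76 and 6.43. Every array of the 3 antigen-experienced subsets lay above every naive array. The rise over naive was 1.11 ± 0.15 in PD-1hi (2.15-fold), 1.32 ± 0.15 in PD-1int and 2.82-fold in memory (95% interval 1.18 to 1.82 on the log2 scale), with limma adjusted p of 1.51e-05, 2.76e-06 and 1.73e-06. Between PD-1hi and memory the log2 difference was -0.39 ± 0.15 and did not pass (limma adjusted p = 0.0823; 0.0488 without PD-1hi replicate 4), nor did that between PD-1int and memory, -0.18 ± 0.15 (limma adjusted p = 0.561). Naive thus passed against each of the other subsets, while no pair of the others passed when all arrays were fitted without a block. With a block for the replicate number, PD-1hi passed against memory (limma adjusted p = 0.0427).

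Mcl1 encodes a short-lived guardian that T cells need at every stage, and its RNA varied little. Its arrays read 9.72, 9.72, 9.85 and 9.88 in PD-1hi, 9.92, 9.70, 9.75 and 9.79 in PD-1int, 9.43, 9.78, 9.55 and 9.60 in memory, and 9.89, 10.02, 9.80 and 9.91 in naive. Memory lay lowest and did not overlap naive. Mcl1 fell in memory against naive by 0.31 ± 0.08 (limma adjusted p = 0.0185), a call lost in 2 of 16 fits that left out 1 array, with an adjusted p of 0.0776 without memory replicate 1. The log2 difference from naive was -0.11 ± 0.08 in PD-1hi, with a 95% interval of -0.29 to 0.07, and -0.11 ± 0.08 in PD-1int (-0.29 to 0.07). Its second, dimmer probe set lay at 6.05 to 6.22 in memory and 6.13 to 6.70 in naive, which overlapped. In PD-1int this probe set lay at 5.88 to 6.12, below every naive array. In PD-1hi it lay at 5.83 to 6.40 and overlapped naive.

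**Figure D2:**
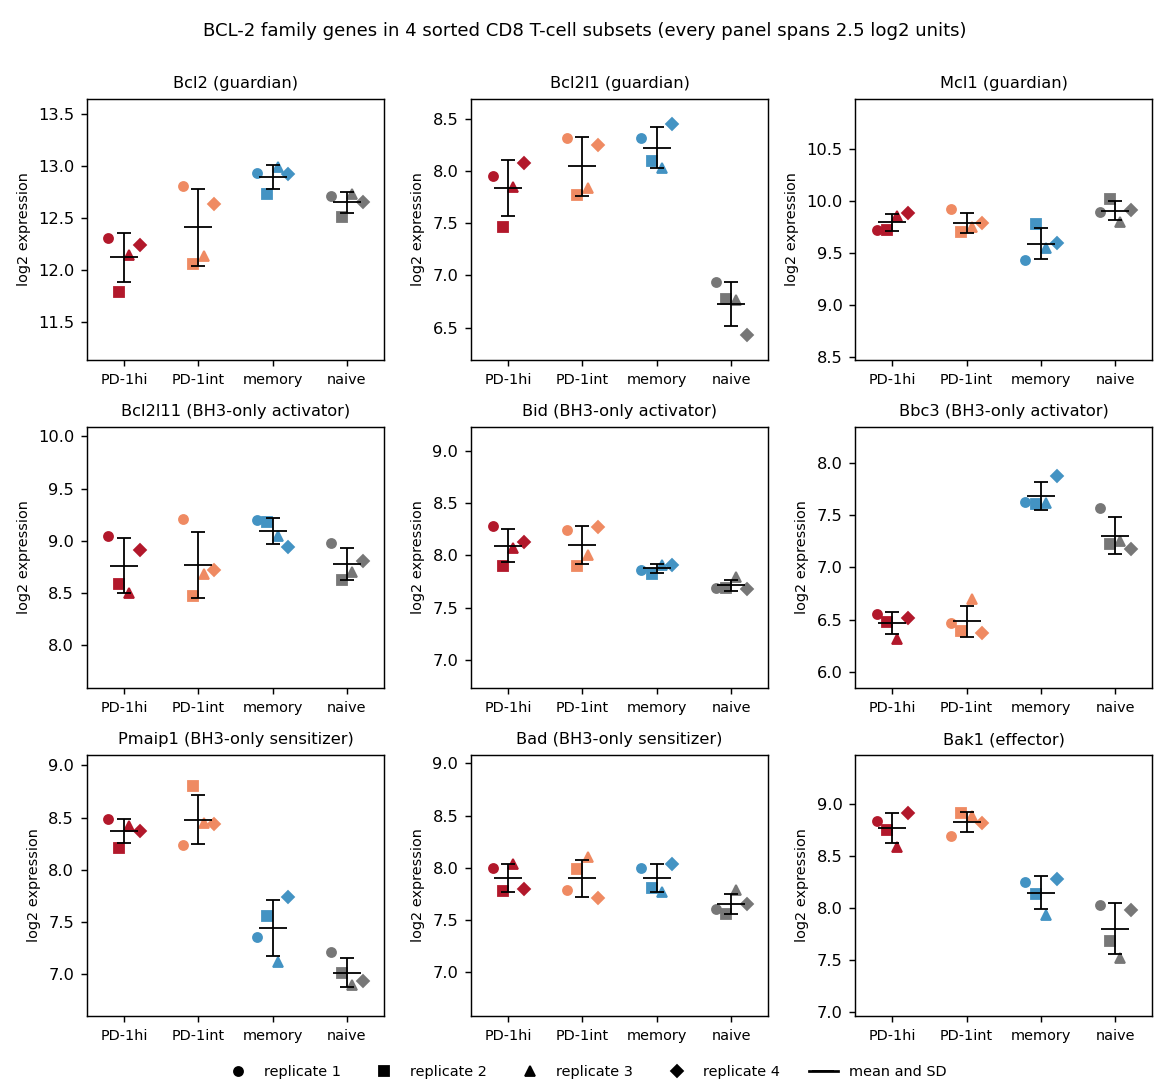
log2 expression (y axis, 2.5 log2 units in every panel) of the 9 genes by subset (x axis); symbols are the 4 arrays of a subset, and bars are the mean and SD. Bbc3 is lower, and Pmaip1 and Bak1 are higher, in all 8 effector arrays than in any memory or naive array, and Bcl2l1 separates naive from the rest.

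The 3 BH3-only genes whose proteins can activate BAX and BAK went different ways. Bcl2l11, the gene of BIM, passed in no comparison when all arrays were fitted without a block. With a block for the replicate number it passed in PD-1hi against memory (limma adjusted p = 0.0352). It ranged from 8.50 to 9.05 in PD-1hi, 8.47 to 9.21 in PD-1int, 8.94 to 9.20 in memory and 8.62 to 8.98 in naive. Its log2 difference from naive was -0.02 ± 0.14 in PD-1hi, with a 95% interval of -0.32 to 0.29, and -0.0098 ± 0.14 in PD-1int (-0.31 to 0.30). Memory was 0.31 ± 0.14 above naive, which did not pass (limma adjusted p = 0.208). Against memory it differed by -0.33 ± 0.14 in PD-1hi and -0.32 ± 0.14 in PD-1int (limma adjusted p = 0.122 and 0.163), and passed without PD-1hi replicate 1 (0.0499) and without PD-1int replicate 1 (0.0193). Bid encodes a protein that is cut by caspase-8 and by granzyme B and then moves to mitochondria. It had 8.28, 7.90, 8.07 and 8.13 in PD-1hi and 7.90 to 8.27 in PD-1int, against 7.82 to 7.91 in memory and 7.69, 7.69, 7.79 and 7.68 in naive. All effector arrays lay above all naive arrays, and the rise was small: 0.38 ± 0.09 in PD-1hi, or 1.30-fold (limma adjusted p = 0.00409), and 0.39 ± 0.09 in PD-1int, or 1.31-fold (limma adjusted p = 0.00445). In memory Bid was 0.16 ± 0.09 above naive and did not pass (limma adjusted p = 0.350).

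Bbc3, the gene of PUMA, was lower in both effector subsets than in both CD127hi subsets. Its level was 6.55, 6.48, 6.31 and 6.52 in PD-1hi and 6.47, 6.39, 6.70 and 6.37 in PD-1int. In memory it was 7.63, 7.61, 7.62 and 7.88, and in naive 7.57, 7.22, 7.25 and 7.18. No effector array reached the lowest naive array. Bbc3 fell in PD-1hi by 0.84 ± 0.10 against naive (limma adjusted p = 3.80e-06) and by 1.22 ± 0.10 against memory (limma adjusted p = 6.96e-08), a 2.33-fold lower level. The falls in PD-1int were 0.82 ± 0.10 on the log2 scale against naive (limma adjusted p = 6.94e-06) and 1.20 ± 0.10 against memory (limma adjusted p = 1.59e-07). Memory stood 0.38 ± 0.10 above naive, which passed with a limma adjusted p of 0.0186 but was lost in 4 of 16 fits that left out 1 array (0.0741 without memory replicate 4).

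Pmaip1, the gene of NOXA, gave the largest rise of the 9 genes in the effector cells. Its arrays read 8.49, 8.21, 8.42 and 8.37 in PD-1hi, 8.24, 8.80, 8.45 and 8.44 in PD-1int, 7.36, 7.56, 7.12 and 7.74 in memory, and 7.21, 7.01, 6.90 and 6.94 in naive. All 8 effector arrays were above all memory and naive arrays. The rise over naive was 1.36 ± 0.13 in PD-1hi, or 2.56-fold (limma adjusted p = 1.77e-07), and 1.47 ± 0.13 in PD-1int, or 2.76-fold (limma adjusted p = 9.50e-08). Over memory it was 0.93 ± 0.13 in PD-1hi and 1.04 ± 0.13 in PD-1int (limma adjusted p = 2.69e-05 and 1.59e-05). Memory rose over naive by 0.43 ± 0.13 (limma adjusted p = 0.0376), with overlapping arrays. That call was lost in 6 of 16 fits that left out 1 array (0.138 without memory replicate 4), with quantile normalization (0.0616), with median centring (0.0655) and in a fit of the 8 arrays alone (0.0577). Bad, the other sensitizer, spanned 7.78 to 8.04 in PD-1hi, 7.71 to 8.10 in PD-1int, 7.77 to 8.04 in memory and 7.56 to 7.79 in naive. It stood 0.25 ± 0.10 above naive in PD-1hi, 0.24 ± 0.10 in PD-1int and 0.25 ± 0.10 in memory, and passed in none (limma adjusted p = 0.0772, 0.101 and 0.131), although it passed in PD-1int without PD-1int replicate 4 (0.0463).

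Bak1, the effector that sits in the mitochondrial membrane, rose in the effector cells. It read 8.83, 8.75, 8.58 and 8.91 in PD-1hi and 8.69, 8.91, 8.88 and 8.81 in PD-1int, against 8.25, 8.13, 7.93 and 8.28 in memory and 8.03, 7.68, 7.52 and 7.98 in naive. The 8 effector arrays lay above all others, while memory and naive overlapped. The rise over naive was 0.96 ± 0.12 in PD-1hi, or 1.95-fold (limma adjusted p = 2.78e-06), and 1.02 ± 0.12 in PD-1int, or 2.03-fold (limma adjusted p = 2.08e-06). Over memory it was 0.62 ± 0.12 in PD-1hi and 0.68 ± 0.12 in PD-1int (limma adjusted p = 4.83e-04 and 3.71e-04). Memory was 0.34 ± 0.12 above naive and did not pass (limma adjusted p = 0.0625), although it did when the 40% dimmest genes were left out (0.0415), with array weights (0.0348), and without naive replicate 1 (0.0285), naive replicate 4 (0.0386) or memory replicate 3 (0.0317).

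Set against memory, the other CD127hi subset, 4 genes passed in each effector subset: Pmaip1 and Bak1 rose, and Bbc3 and Bcl2 fell, in PD-1hi and in PD-1int. That is 44.4% of the 9 genes in each. Of all genes, 21.9% passed in PD-1hi against memory (10.8% higher, 11.1% lower) and 16.2% in PD-1int against memory (8.49% higher, 7.66% lower). Without the 40% dimmest genes, none of them a member, 4881 passed in PD-1hi and 3718 in PD-1int, against 4868 and 3584 with them. The shares among brighter genes are thus higher. With a block for the replicate number, 6 of the 9 genes passed in PD-1hi against memory. The arrays of 4 genes did not overlap in PD-1hi against memory (23.9% of all genes), and those of 3 in PD-1int against memory (20.6% of all genes). Mcl1 stood 0.20 ± 0.08 above memory in PD-1hi and in PD-1int, and Bid 0.22 ± 0.09 and 0.23 ± 0.09 above it, and none of these passed (limma adjusted p from 0.102 to 0.127). Without memory replicate 2, Mcl1 passed against memory in PD-1hi (0.0336) and PD-1int (0.0458). Bid passed against memory in PD-1hi without PD-1hi replicate 2 (0.0395) and in PD-1int without PD-1int replicate 2 (0.0464).

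PD-1hi and PD-1int were gated alike on CD127 and CD44 and apart on PD-1. Even so, Il7r was lower in PD-1hi (-2.58 ± 0.20, limma adjusted p = 8.78e-07), and Cd44 was lower there without overlap. Among the 9 genes there was no call between these 2 subsets. None passed in limma, none had an unadjusted p under 0.05, and no gene's arrays were free of overlap, while 3.31% of all genes passed (1.37% higher, 1.94% lower) and 8.89% did not overlap. The median size of the log2 difference was 0.02 over the 9 genes and 0.09 over all genes. The largest was that of Bcl2, -0.29 ± 0.15 with a 95% interval of -0.60 to 0.02 (limma adjusted p = 0.395), and then that of Bcl2l1, -0.21 ± 0.15 (-0.54 to 0.11). For Mcl1 the interval ran from -0.18 to 0.18, for Bbc3 from -0.23 to 0.20, for Bid from -0.20 to 0.19 and for Bak1 from -0.30 to 0.19. A p that misses the threshold does not show that these genes were alike in the 2 subsets. In PD-1hi cells Bcl2 passed against naive and in PD-1int cells it did not, and the test of that difference is this one, which did not pass.

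The spread of Bcl2 and Bcl2l1 within the effector subsets was shared between the genes. PD-1int replicates 1 and 4 were the higher pair in Bcl2, Bcl2l1, Bid and Bcl2l11, and PD-1hi replicates 1 and 4 were the higher pair in the same 4 genes. When Bcl2 was subtracted from Bcl2l1 within each array and the naive mean set to 0, the difference was 1.57 to 1.76 in PD-1hi, 1.43 to 1.63 in PD-1int, 0.96 to 1.45 in memory and -0.29 to 0.18 in naive. These ranges in the effector subsets were narrower than those of either gene alone. The same subtraction of Mcl1 from Pmaip1, the gene of its main BH3-only partner among the sensitizers, gave 1.38 to 1.65 in PD-1hi, 1.20 to 1.98 in PD-1int, 0.46 to 1.03 in memory and -0.12 to 0.22 in naive. For Bcl2l11 minus Bcl2, the pair of a brake on activated cells and its guardian, it was 0.21 to 0.67 in PD-1hi, -0.04 to 0.41 in PD-1int, -0.11 to 0.32 in memory and -0.16 to 0.14 in naive. Bak1 minus Bcl2 gave 1.27 to 1.81 in PD-1hi, 0.72 to 1.70 in PD-1int, -0.21 to 0.25 in memory and -0.37 to 0.18 in naive. Bbc3 minus Bcl2 went down instead, with means of -0.31 in PD-1hi (-0.50 to 0.04) and -0.58 in PD-1int (-0.99 to -0.09). This last pair lay at -0.02 to 0.31 in memory and -0.13 to 0.21 in naive. Only the shifts between subsets can be read from these values, since probe sets of 2 genes have no common zero.

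**Figure D3:**
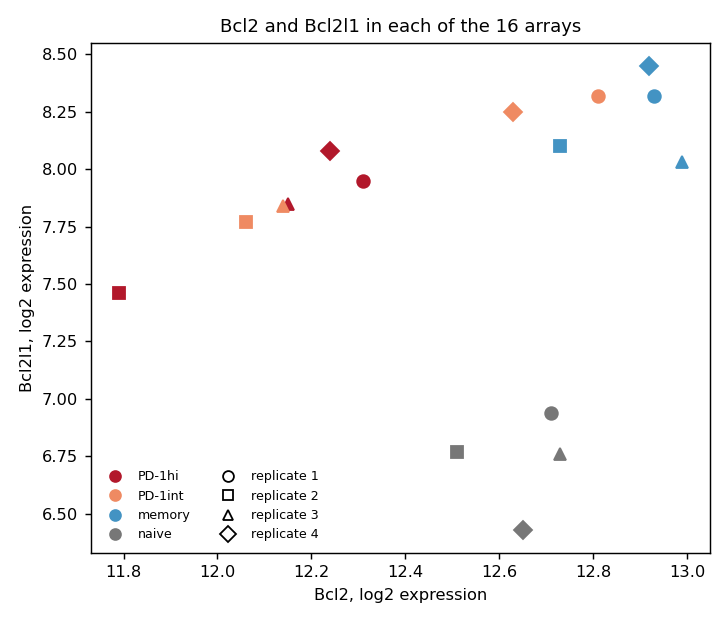
log2 expression of Bcl2 (x axis) and Bcl2l1 (y axis) in each array, with colour for the subset and symbol for the replicate number. The 4 naive arrays lie apart at 6.43 to 6.94 of Bcl2l1, and memory, PD-1int and PD-1hi arrays run from upper right to lower left, PD-1hi replicate 2 being lowest in both genes among these 12.

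Transcription factors of the FOXO family are known to switch on Bcl2l11 and Bbc3, NF-kB factors Bcl2l1, and STAT5, downstream of interleukins 2, 7 and 15, Bcl2 and Bcl2l1. Windows of 300 bases around the annotated starts of members (250 before to 50 after the start, RefSeq, GRCm38.p6) were searched for FOXO letters (TGTTTAC or GTAAACA), NF-kB letters (GGG and TTCC, or GGAA and CCC, with any 3 bases between) and STAT letters (TTCNNNGAA, its own reverse complement), so that both strands were covered. There were 15 windows for 9 genes, Bax among them and Pmaip1 not. FOXO letters occurred in 2 windows, of Bcl2l11 and Bbc3, NF-kB letters in 3, of Bcl2l1, Mcl1 and Bbc3, and STAT letters in 0. Of all 32851 such windows 3.6% held FOXO letters, 5.6% NF-kB letters and 8.3% STAT letters. Of these, 3 windows are shown. They belong to the guardian that rose over naive in all 3 other subsets and the BH3-only gene that fell in both effector subsets. The last window is of a BH3-only gene that did not pass against naive when all arrays were fitted. Each runs 5′ to 3′ on the gene's strand, and capitals mark the letters searched for. The Bcl2l1 window is chr2:152830668-152830967 on the minus strand, with NF-kB letters from position 33. The Bbc3 window is chr7:16310011-16310310 on the plus strand, with FOXO letters from position 84. The Bcl2l11 window is chr2:128125788-128126087 on the plus strand, with FOXO letters from position 24.
Bcl2l1: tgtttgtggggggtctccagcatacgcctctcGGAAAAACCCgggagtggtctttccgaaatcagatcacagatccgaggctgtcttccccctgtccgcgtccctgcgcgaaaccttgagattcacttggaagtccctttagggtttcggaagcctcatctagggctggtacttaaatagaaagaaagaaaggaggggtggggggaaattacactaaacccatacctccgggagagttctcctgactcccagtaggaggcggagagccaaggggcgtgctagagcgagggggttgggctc
Bbc3: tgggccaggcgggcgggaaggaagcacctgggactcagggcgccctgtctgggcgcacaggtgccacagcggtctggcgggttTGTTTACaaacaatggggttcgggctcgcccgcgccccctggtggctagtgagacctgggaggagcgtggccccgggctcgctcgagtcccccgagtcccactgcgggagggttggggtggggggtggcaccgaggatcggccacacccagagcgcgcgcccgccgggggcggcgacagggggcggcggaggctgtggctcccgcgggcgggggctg
Bcl2l11: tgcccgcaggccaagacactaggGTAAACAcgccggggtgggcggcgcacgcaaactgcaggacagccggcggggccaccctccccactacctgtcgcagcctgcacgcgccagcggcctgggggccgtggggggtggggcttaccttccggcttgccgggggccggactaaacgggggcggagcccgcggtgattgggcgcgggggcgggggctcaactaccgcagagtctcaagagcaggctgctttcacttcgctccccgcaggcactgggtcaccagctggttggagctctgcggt
A match of letters is a description of these windows and not a bound site. The 2 windows with FOXO letters belong to genes that did not move alike: Bbc3 fell in PD-1hi and PD-1int against naive, and Bcl2l11 passed in neither.

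For the 4 members whose subset means spanned at least 1 log2 unit, the genes with the most similar pattern over the 16 arrays were listed by Pearson r, which here reflects mainly the 4 subset means. Bcl2l1 was most like St3gal6 (r = 0.969), a sialyltransferase, Crybg1 (0.969) and Cd44 (0.955), the adhesion receptor of the sort gate. Bbc3 was most like Nop16 (0.974), a nucleolar protein gene, Rnf32 (0.970) and Tnfsf8 (0.967), which encodes the ligand of CD30. Pmaip1 was most like Cd48 (0.979), a ligand of the SLAM family, Pdgfb (0.974), a growth factor chain, and Elf4 (0.972), an ETS-family transcription factor. Bak1 was most like Cd2 (0.969), an adhesion receptor of T cells, Tstd3 (0.968) and Glmp (0.965), a lysosomal membrane protein gene.

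Of 11 other BCL-2 family genes measured in a list of 15, 1 rose and 1 fell in PD-1hi against naive, as in PD-1int against naive, and 1 rose in memory against naive; the list medians were 0.05, -0.06 and -0.0048. The shares of all genes that passed were 27.1% in PD-1hi, 22.7% in PD-1int and 11.7% in memory, so these counts were no higher than the background. The rise was that of Bcl2a1a, a guardian of activated lymphocytes that NF-kB induces. It averaged 10.25 ± 0.10 in PD-1hi, 9.83 ± 0.30 in PD-1int, 8.14 ± 0.30 in memory and 7.51 ± 0.21 in naive (SD, n = 4). Its rise over naive, 2.74 ± 0.15 in PD-1hi (limma adjusted p = 1.43e-10), was larger than that of any of the 9 genes above, and it was 2.32 ± 0.15 in PD-1int and 0.63 ± 0.15 in memory. Mice carry several nearly identical Bcl2a1 copies, so the reading cannot be given to Bcl2a1a alone. Bnip3, an atypical family member tied to the removal of mitochondria, fell in PD-1hi (-0.65 ± 0.17) and PD-1int (-0.74 ± 0.17). It was dim, averaging 5.38 in PD-1hi, 5.30 in PD-1int, 5.56 in memory and 6.03 in naive. All of these lay below the lowest array median of 6.39.

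Downstream of the mitochondria, Apaf1, the scaffold on which cytochrome c activates caspase-9, averaged 9.74 ± 0.17 in PD-1hi and 9.43 ± 0.25 in PD-1int, against 8.29 ± 0.25 in memory and 8.05 ± 0.30 in naive (SD, n = 4). It rose over naive by 1.69 ± 0.16 in PD-1hi (limma adjusted p = 1.09e-07) and by 1.38 ± 0.16 in PD-1int. Of the 16 genes measured in the list of the mitochondrial death pathway, 3 rose and 2 fell in PD-1hi against naive, 2 rose and 1 fell in PD-1int, and 2 rose and 2 fell in memory, with list medians of -0.006, -0.06 and 0.05. Set against 27.1%, 22.7% and 11.7% of all genes, the counts in PD-1hi and PD-1int were near the background. Cycs, the gene of cytochrome c itself, rose over naive in all 3, by 0.53 ± 0.08 in PD-1hi, 0.36 ± 0.08 in PD-1int and 0.49 ± 0.08 in memory. Endog, a mitochondrial nuclease, fell in PD-1hi (-0.68 ± 0.10). Birc2, an inhibitor of apoptosis that ubiquitinates signalling proteins, fell in PD-1int (-0.50 ± 0.11) and memory (-0.70 ± 0.11). Casp9 averaged 8.06 ± 0.17 in PD-1hi and 8.07 ± 0.06 in naive and did not pass.

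Of a list of 14 named for p53 and its classic targets, 12 were measured, and p53's own gene was not among these. Bbc3, Pmaip1 and Bax also belong to the classic targets. In PD-1hi against naive 6 of the 12 rose and 1 fell, and in PD-1int 5 rose and 1 fell. None passed in memory in limma, where 1 had an unadjusted p under 0.05. Of all genes, 27.1% passed in PD-1hi, 22.7% in PD-1int and 11.7% in memory. The list medians were 0.30, 0.24 and 0.04. Cdkn1a, the cell-cycle inhibitor p21, rose over naive by 2.77 ± 0.17 in PD-1hi and 1.92 ± 0.17 in PD-1int, and Perp, a membrane protein, by 2.47 ± 0.21 and 1.91 ± 0.21. Ccng1, which encodes cyclin G1, rose by 0.85 ± 0.09 in PD-1hi and 0.42 ± 0.09 in PD-1int. The exception was Tnfrsf10b, a death receptor for TRAIL, which fell by 0.64 ± 0.16 in PD-1hi and 1.03 ± 0.16 in PD-1int. In PD-1hi, Bbc3 thus fell where 6 of the listed genes and Pmaip1 rose. Between PD-1hi and PD-1int, where no BCL-2 member passed, Cdkn1a (0.85 ± 0.17) and Ccng1 (0.43 ± 0.09) were higher in PD-1hi (limma adjusted p = 0.00713 and 0.0122).

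**Figure D4:**
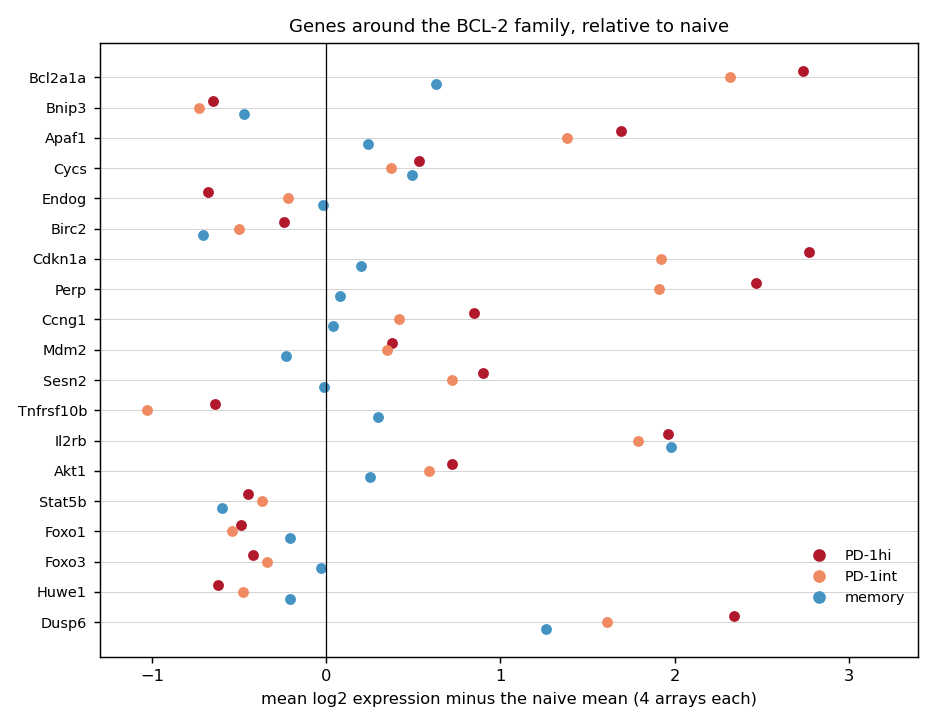
Mean log2 expression minus the naive mean (x axis, log2 units, 4 arrays per subset) of 19 genes around the BCL-2 family in PD-1hi, PD-1int and memory. Cdkn1a, Bcl2a1a and Perp lie furthest right in PD-1hi and in PD-1int, and Tnfrsf10b lies furthest left in PD-1int.

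Upstream, 17 of 21 listed cytokine and kinase regulators were measured. Of these, 6 rose and 6 fell in PD-1hi against naive, 6 rose and 4 fell in PD-1int, and 4 rose and 2 fell in memory. Of all genes, 27.1%, 22.7% and 11.7% passed in these comparisons. Il7r, the gene of CD127, is part of the gate and no finding. Il2rb, the chain shared by the receptors for interleukins 2 and 15, rose over naive by 1.96 ± 0.08 in PD-1hi, 1.79 ± 0.08 in PD-1int and 1.98 ± 0.08 in memory. Akt1, a kinase that phosphorylates BAD and FOXO proteins, rose in PD-1hi (0.72 ± 0.09) and PD-1int (0.58 ± 0.09). Stat5b fell in all 3, by 0.46 ± 0.10 in PD-1hi, 0.37 ± 0.10 in PD-1int and 0.61 ± 0.10 in memory. Foxo1 fell in PD-1hi (-0.49 ± 0.09) and PD-1int (-0.54 ± 0.09), and Foxo3 fell in PD-1hi (-0.42 ± 0.13), a call lost in 3 of 16 fits that left out 1 array (limma adjusted p = 0.0871 without naive replicate 1). Foxo1 and Foxo3 were chosen after their values were seen, as were Casp9 and, in the plot of genes around the family, Mdm2 and Sesn2. Of 9 genes measured that act on the MCL-1 protein, 2 rose and 3 fell in PD-1hi, 2 rose and 2 fell in PD-1int, and 1 rose in memory. The shares of all genes were again 27.1%, 22.7% and 11.7%. Huwe1, a ubiquitin ligase that marks MCL-1 for degradation, fell in PD-1hi (-0.62 ± 0.07) and PD-1int (-0.48 ± 0.07). From the same list, Gsk3b rose in PD-1hi (0.28 ± 0.07) and Usp9x fell in PD-1int (-0.38 ± 0.10). The level of the MCL-1 protein was not measured, so no direction for it can be read from this list. Dusp6, a phosphatase of ERK, a kinase that phosphorylates MCL-1, rose in PD-1hi (2.34 ± 0.17), PD-1int (1.62 ± 0.17) and memory (1.27 ± 0.17).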

How the data were processed

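RNA of sorted cells was extracted with an RNeasy Micro kit and labelled with a WT Pico kit for Affymetrix Mouse Gene 2.0 ST arrays, per the labels' protocols. The submitters' processing notes name Affymetrix Power Tools; the sources used here do not say how probes were summarised, or with which version and build. The authors deposited log2 expression for each probe set on a common scale, the log base being read from the range of the values. Of 41345 probe sets, 23521 had 1 gene symbol in the platform annotation, 1814 had several and 16010 had none; symbols were checked against RefSeq by Entrez identifier (23328 matched, 0 changed). The probe set with the highest mean stood for each of 22180 genes, with no filter on dim genes and no detection calls.

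All 16 arrays were fitted with limma 3.58.1 in R 4.3.3 (a mean per subset, no block), with Benjamini-Hochberg adjustment over all genes of each of 6 comparisons. On simulated data for PD-1hi against naive (22180 genes), 10 of 50 genes with a true log2 difference of 0.3 were recovered. With a difference of 0.5 it was 30 of 50, and with a difference of 1 it was 48 of 50. The 6 false calls were the same figure for every size. Only 50 genes were changed per size, while 27.1% of all genes passed in the real comparison, so recovery there may differ. The number of arrays limits the precision. The members and lists were chosen with earlier results of these data known. Genes outside the 10 members are up to 3 per list and comparison with the smallest adjusted p, and the 3 most alike by Pearson r for members spanning at least 1 log2 unit; other genes were chosen after their values were seen. The marker lists were fixed by name, and from them Cd8a, Cd3e, Cd79a, Ms4a1 and Lyz2 were fixed for naming. Cd4, Ncr1 and Mki67 were also fixed and are not given singly. The other single markers were named after their values were seen. Alternatives were a replicate block, the 8 arrays compared alone, no dim genes, the mean of probe sets, quantile normalization, median centring, trend and robust eBayes, array weights and leaving out each array.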

Additional observations from a re-analysis of the deposited data

Results flagged for a closer look

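Within a subset, 2 of the 36 sets of 4 arrays (9 genes in 4 subsets) held an array that stood apart from its neighbours by more than Dixon's 95% critical value, the gap to the nearest being set against the subset's whole range; chance flags about 1 in 20. Bbc3 in memory replicate 4 was 7.88, with the other memory arrays at 7.61 to 7.63. Bid in naive replicate 3 was 7.79, with the other naive arrays at 7.68 to 7.69.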

How the results depend on the processing

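In memory against naive, 2 of the 9 genes passed when the 8 arrays were fitted alone, against 4 in the fit of all arrays, and 1 to 5 when 1 array was left out; the 8-array fit has fewer samples, and no other cause was tested. Counts in the other 5 comparisons stayed within 1.5 times under every alternative run. With a replicate block, PD-1hi had 6 genes past the threshold against naive, 6 against memory (4 without the block) and 0 against PD-1int; PD-1int had 5 against naive and 4 against memory, and memory had 5 against naive. Bak1 in memory against naive (limma adjusted p = 0.0363), Bcl2l1 (0.0427) and Bcl2l11 (0.0352) in PD-1hi against memory then passed. Arrays of the same number deviated together by r of -0.05 to 0.15 (median 0.04), over 0.1 in 2 of 24 pairs. Between arrays of different numbers the median r was -0.0098. The rule for a block in the main fit was an r over 0.1 in every pair, which was not met. Yet 10 of 16 arrays correlated best with their own number, and the sample titles repeat the same 4 numbers in each subset. The labels do not say what a number stands for, so a shared source of same-numbered arrays cannot be told. Bcl2 in PD-1int against memory was also lost with the 8 arrays alone (limma adjusted p = 0.0588), the mean of probe sets (0.169) and quantile normalization (0.116), and Mcl1 in memory against naive with the 8 arrays alone (0.0529). Differences that changed sign had not passed and lay near 0, and the cause was not tested. With quantile normalization these were Bcl2l11 (0.01) and Bid (0.02) in PD-1hi against PD-1int and Bad in PD-1hi against memory (0.03). With median centring they were Mcl1 (-0.01) and Bad (-0.005) in PD-1hi against PD-1int and Bad in PD-1int against memory (0.0017). With array weights they were Bid (0.02) and Bad (-0.01) in PD-1hi against PD-1int and Bad in PD-1int against memory (0.01). Leaving out 1 array gave Bcl2l11 -0.12 to 0.07 in PD-1hi and -0.16 to 0.09 in PD-1int, each against naive cells. For PD-1hi against PD-1int it gave Mcl1 -0.03 to 0.04, Bcl2l11 -0.11 to 0.14, Bid -0.07 to 0.06, Bbc3 -0.05 to 0.06, Bad -0.05 to 0.08 and Bak1 -0.11 to 0.0068. For Bad it gave -0.05 to 0.05 in PD-1hi against memory and -0.08 to 0.05 in PD-1int against memory. Quantile normalization turned the split of all genes in PD-1int against naive to 2425 higher and 2751 lower, against 2639 and 2398. Deposited values carry no detection calls, so signal over background could not be judged.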
